A study of Homo sapiens with 11 samples.

Results

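Cytosolic aminoacyl-tRNA synthetases were followed over the 11 arrays of a study in MV4-11 cells, an established line of acute myeloid leukaemia. The 10 genes were AARS1, GARS1, WARS1, MARS1, SARS1, NARS1, EPRS1, IARS1, LARS1 and TARS1. They were taken by gene symbol, without a cut on their values, but chosen with earlier results of these data known. Each had exactly 1 transcript cluster, a set of probes read together, that was annotated with this symbol alone. All 10 were among the 12147 genes whose highest level reached the filter of 3.80 on the log2 scale, of 22109 genes with such a cluster.

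Each condition had 1 array. Of the 8 knockdown arrays, 7 came from cells transduced with shRNAs against RUNX1, RUNX2, RUNX3, RUNX1 and RUNX2, RUNX1 and RUNX3, RUNX2 and RUNX3, or all of these genes, and the control array from cells with a luciferase shRNA (shLuc). All 8 cultures were incubated with doxycycline at 3 µM for 24 hours. The other 3 cultures received Chb-M' or Chb-50, each at 1 µM, or DMSO alone for 6 hours. The series asked how knockdown of the RUNX transcription factors or treatment with alkylating PIP conjugates changes expression. Nothing in the labels ties the arrays to separate cultures or batches, so p-values cover only how far these particular arrays scatter. As no condition was repeated, that scatter is the departure of different conditions from the shRNA effects fitted below. Part of it may be technical, and part may come from shRNAs that do not act additively. A SD over arrays with or without a shRNA likewise spans different conditions. In RNA from bulk cultures, fewer cells of a kind and less RNA per cell cannot be told apart.

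Aminoacyl-tRNA synthetases join each amino acid to its tRNA before translation. AARS1 charges alanine tRNA, GARS1 glycine, WARS1 tryptophan, SARS1 serine, NARS1 asparagine and TARS1 threonine. MARS1 (methionine), IARS1 (isoleucine), LARS1 (leucine) and EPRS1, which charges both glutamate and proline tRNAs, sit in the multi-synthetase complex of the cytosol. Many of these genes are known targets of ATF4, the transcription factor that is translated when amino acids run short or the endoplasmic reticulum is stressed. WARS1 is also known as a gene induced by interferon gamma.

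ATF4 binds, with a C/EBP partner, elements that read TGATGNAA. This motif stood in 5 of the 9 member promoters for which RefSeq sequence on GRCh38.p14 was used, against 1.69% of the 9215 promoters of genes tested and 3.62% of all 35116 promoters. A promoter here is the window of 250 bases before to 50 bases after the annotated start, and both strands were searched. The 5 elements are shown with 10 bases on either side and the motif in capitals, turned so that it reads forward, because they share the letters TGATGCAA. They lie at chr16:70289676-70289703 on the plus strand for AARS1, chr12:57488054-57488081 on the minus strand for MARS1, chr18:57621805-57621832 on the minus strand for NARS1, chr9:92293693-92293720 on the plus strand for IARS1 and chr5:33440957-33440984 on the minus strand for TARS1.
AARS1: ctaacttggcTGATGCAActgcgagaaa
MARS1: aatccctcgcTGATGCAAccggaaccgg
NARS1: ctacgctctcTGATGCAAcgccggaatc
IARS1: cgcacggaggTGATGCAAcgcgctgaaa
TARS1: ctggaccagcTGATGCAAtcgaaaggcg
Counted from 0 at the start of transcription, the first base of the element stands at -187 in AARS1, -13 in IARS1, -4 in MARS1, 2 in TARS1 and 14 in NARS1, so the AARS1 element alone lies well upstream. In NARS1 it runs in the direction of the gene, and in the other 4 against it.

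Whole promoters are shown for AARS1 (chr16:70289457-70289756, minus strand), MARS1 (chr12:57487818-57488117, plus strand) and GARS1 (chr7:30594485-30594784, plus strand), the 3 members with the lowest RUNX1 shRNA estimates below. Capitals mark TGATGNAA on either strand (TTGCATCA where it runs against the gene) and the RUNX core motifs TGTGGT and TGCGGT.
AARS1: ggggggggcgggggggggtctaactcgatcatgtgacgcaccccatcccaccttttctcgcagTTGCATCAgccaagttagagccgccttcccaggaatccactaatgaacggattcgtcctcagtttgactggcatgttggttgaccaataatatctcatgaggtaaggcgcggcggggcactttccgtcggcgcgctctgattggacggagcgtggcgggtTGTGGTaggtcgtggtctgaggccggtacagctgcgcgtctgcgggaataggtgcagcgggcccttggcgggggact
MARS1: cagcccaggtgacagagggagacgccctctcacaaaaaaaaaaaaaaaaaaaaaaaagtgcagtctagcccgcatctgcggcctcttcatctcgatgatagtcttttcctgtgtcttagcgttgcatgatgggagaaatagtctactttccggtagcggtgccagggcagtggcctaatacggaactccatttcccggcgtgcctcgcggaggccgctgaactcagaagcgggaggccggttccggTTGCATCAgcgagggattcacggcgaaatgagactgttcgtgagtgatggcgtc
GARS1: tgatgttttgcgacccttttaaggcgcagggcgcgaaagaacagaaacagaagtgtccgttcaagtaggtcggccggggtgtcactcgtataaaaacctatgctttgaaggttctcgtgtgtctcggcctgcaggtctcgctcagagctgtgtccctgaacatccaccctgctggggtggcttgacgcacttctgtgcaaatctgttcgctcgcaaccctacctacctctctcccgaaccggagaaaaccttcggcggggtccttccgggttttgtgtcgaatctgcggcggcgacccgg
The AARS1 window holds TGATGNAA and TGTGGT, the MARS1 window TGATGNAA alone, and the GARS1 window none of the 3 motifs. TGTGGT stood in 2 of the 9 member promoters, AARS1 and WARS1, against 9.68% of promoters of genes tested. TGCGGT stood in 1, EPRS1, against 10.2%. A match describes the letters in the window and is no evidence of binding.

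Of 10 markers of the labelled myeloid line 8 were read and passed the level filter, with LYZ between 11.05 and 11.60, SPI1 between 8.50 and 8.67 and FLT3 between 9.33 and 9.87. The lowest of the 8 was ITGAX, at 3.23 to 5.44, which stood under the filter on shLuc, shRUNX3 and shRUNX2+shRUNX3. The T cell markers CD3D, CD3E, CD3G and CD2 stayed at or below 3.37, under the level filter. Of markers of B, erythroid, epithelial and stromal cells, CD79A (4.11 to 4.92), KLF1 (3.19 to 4.18) and KRT18 (3.16 to 4.21) alone passed it. Medians over the tested genes differed little between arrays, from 5.86 to 5.91. RUNX2 read 5.56 to 5.82 on arrays with its shRNA, against 6.00 to 6.30 without it. RUNX3 read 7.65 to 7.87 with its shRNA, against 7.70 to 8.37 without it, and the lowest value without it belonged to the array labelled shRUNX1. The only cluster naming RUNX1 also names another locus. It read 3.96 to 4.26 with the RUNX1 shRNA, against 4.20 to 4.45 without it. On the array labelled shRUNX1 it read 4.12, below every array without the RUNX1 shRNA. Because the RUNX3 level on the array labelled shRUNX1 lies among those of arrays with the RUNX3 shRNA, estimates of the RUNX1 shRNA for the 10 synthetases and the related gene lists are given with and without that array.

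With the RUNX1 shRNA, 8 of the 10 synthetases had estimates below 0, where 5732 of all 12147 genes did. AARS1, GARS1 and MARS1 lay lowest, although no member passed the test. In AARS1 and GARS1 the low values came from the 3 arrays on which the RUNX1 shRNA was joined by another RUNX shRNA, and the array labelled shRUNX1 stayed near shLuc. Without that array, in a fit singled out after seeing the data, AARS1 passed the test, as did 6.73% of all genes tested. Effects were fitted with limma on the 8 knockdown arrays, with 1 additive term for each shRNA, and p-values were adjusted over all 12147 genes by the Benjamini-Hochberg method.

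AARS1 varied most over the knockdown arrays. Its level was 9.14 on the triple knockdown, 9.04 on shRUNX1+shRUNX3, 9.30 on shRUNX1+shRUNX2 and 9.67 on shRUNX1, against 9.61 on shRUNX2+shRUNX3, 9.53 on shRUNX2, 9.67 on shRUNX3 and 9.73 on shLuc. The 3 combinations with the RUNX1 shRNA were the 3 lowest arrays, and shRUNX1 lay among the arrays without it, so the groups overlap. AARS1 averaged 9.29 ± 0.277 with the RUNX1 shRNA and 9.63 ± 0.0836 without it (SD, n = 4 each). The estimate was -0.35 (SE 0.111), or 78.5% of the level, with a limma adjusted p of 0.145.

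GARS1, which encodes both the cytosolic and the mitochondrial glycyl-tRNA synthetase, read 8.77 on the triple knockdown, 8.77 on shRUNX1+shRUNX3, 8.71 on shRUNX1+shRUNX2 and 9.02 on shRUNX1. Against these, GARS1 read 9.14 on shRUNX2+shRUNX3, 8.87 on shRUNX2, 9.10 on shRUNX3 and 9.06 on shLuc. Again the 3 combinations were the lowest of the 8 knockdown arrays and shRUNX1 lay among the rest. Its estimate was -0.23 (SE 0.0861, limma adjusted p = 0.198), or 85.5% of the level.

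MARS1 was lower on every array with the RUNX1 shRNA than on every array without it. It read 8.08, 8.12, 8.08 and 8.19 on the triple knockdown, shRUNX1+shRUNX3, shRUNX1+shRUNX2 and shRUNX1, against 8.28, 8.21, 8.33 and 8.32 on shRUNX2+shRUNX3, shRUNX2, shRUNX3 and shLuc. The estimate was -0.17 (SE 0.0531, limma adjusted p = 0.145), or 89.1% of the level. LARS1 was the other member whose groups did not overlap, at 9.61 ± 0.0246 with the RUNX1 shRNA and 9.68 ± 0.0159 without it (SD, n = 4 each), a difference of -0.07. Thus 2 of 10 members lay wholly lower, against 4.73% of all genes tested, and 0 wholly higher, against 5.15%.

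**Figure D1:**
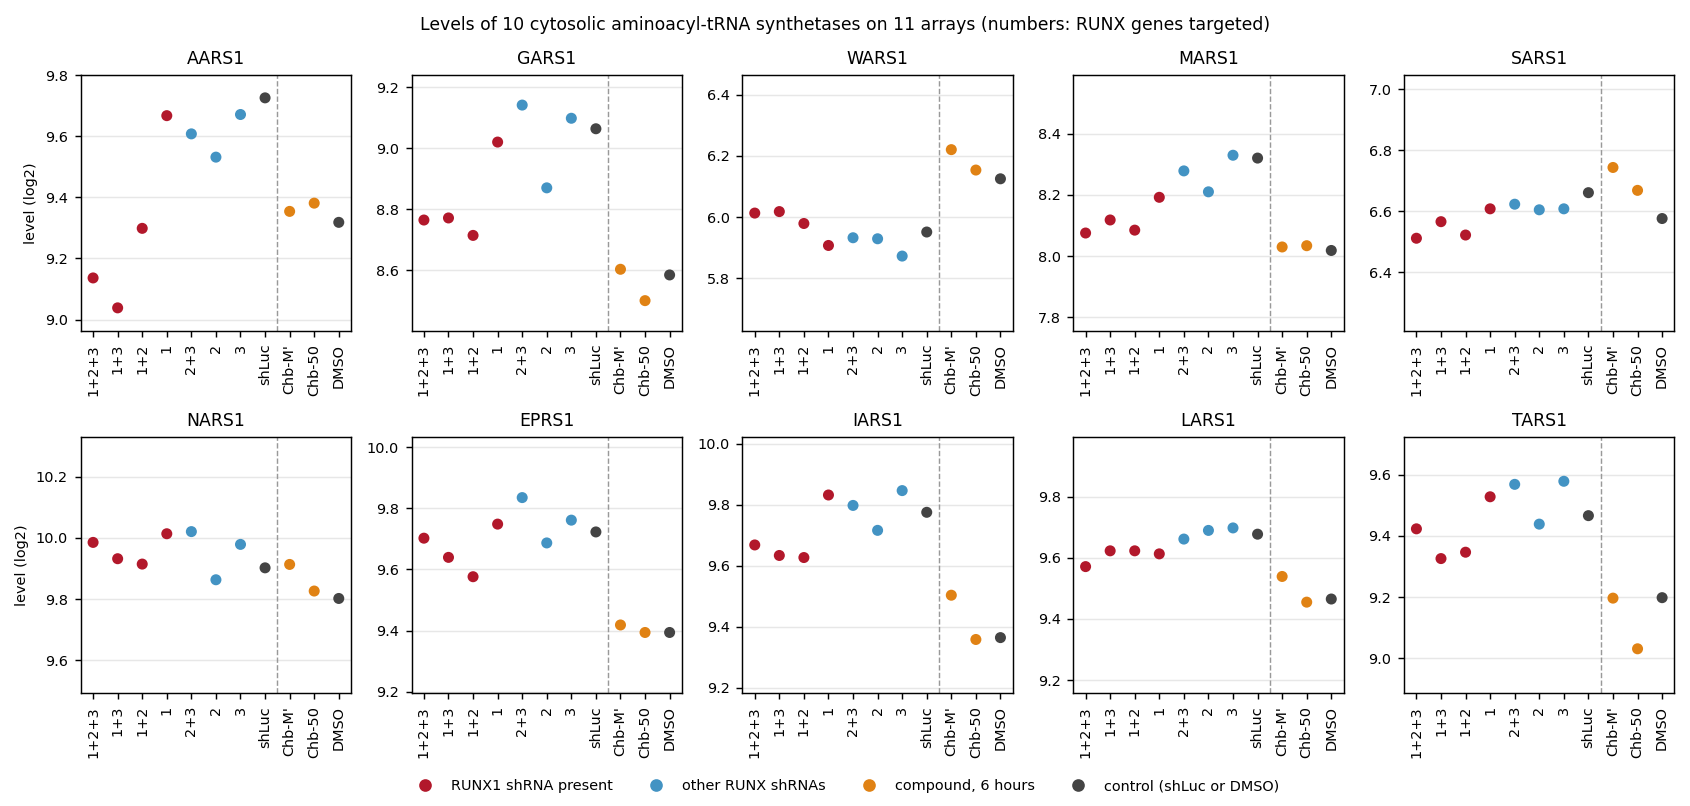
Level of each synthetase (log2, vertical axis; every panel spans the same range) on each of the 11 arrays (horizontal axis, 1 point per array; numbers name the RUNX genes targeted), with arrays carrying the RUNX1 shRNA at the left. AARS1 and GARS1 are low on the 3 combinations with the RUNX1 shRNA, and 6 members, such as EPRS1, are lower on all 3 arrays at 6 hours (right of the dashed line) than on any knockdown array.

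EPRS1 and IARS1, which also sit in the complex, had smaller estimates than MARS1. EPRS1 averaged 9.67 ± 0.0750 with the RUNX1 shRNA and 9.75 ± 0.0635 without it, and IARS1 9.69 ± 0.0961 and 9.78 ± 0.0540 (SD, n = 4 each). Their estimates were -0.08 and -0.09. TARS1, a synthetase outside the complex, averaged 9.41 ± 0.0916 with and 9.51 ± 0.0711 without the RUNX1 shRNA, an estimate of -0.11. Leaving out 1 array, TARS1 ran from -0.17 to -0.052, IARS1 from -0.15 to -0.048 and EPRS1 from -0.13 to -0.051. The lowest value of each came without the array labelled shRUNX1, and the highest without shRUNX1+shRUNX3 for TARS1 and IARS1 and without shRUNX2+shRUNX3 for EPRS1. In all 3 of these genes the groups overlapped, and shRUNX1 was the highest of the 4 arrays with the RUNX1 shRNA.

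SARS1, NARS1 and WARS1 spanned 0.15, 0.16 and 0.15 over the knockdown arrays, and LARS1 spanned the least, 0.13. SARS1 averaged 6.55 ± 0.0441 with and 6.62 ± 0.0257 without the RUNX1 shRNA, an estimate of -0.07. NARS1 averaged 9.96 ± 0.0461 and 9.94 ± 0.0716, an estimate of 0.02, and the sign turned without the arrays labelled shRUNX1 or shRUNX2. WARS1 averaged 5.98 ± 0.0512 and 5.92 ± 0.0340, the highest estimate of the family at 0.06 (SD, n = 4 each for these 3 genes).

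At an unadjusted p under 0.05, the limma fit had 3 of 10 members lower (AARS1, GARS1 and MARS1), against 10% of all genes, and 0 higher, against 11.2%. After adjustment it called 0 of 10, and 0% of all genes. The median estimate of the family was -0.09 (from -0.35 to 0.06), against 0.01 over all genes tested. Arrays can be paired so that the RUNX1 shRNA is the sole difference. In all 4 such pairs 5 members were lower, namely AARS1, GARS1, MARS1, SARS1 and LARS1, against 13% of all genes, and 0 were higher, against 16.5%.

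Left without the array labelled shRUNX1, the fit put AARS1 at -0.46 (SE 0.0866, limma adjusted p = 0.0378). AARS1 then averaged 9.16 ± 0.131 with the RUNX1 shRNA (SD, n = 3) and 9.63 ± 0.0836 without it (SD, n = 4). It was the only member of 10 called, in a fit that called 6.73% of all genes, 3.75% lower. GARS1 stood at -0.30 (limma adjusted p = 0.0587) and MARS1 at -0.18 (0.104). TARS1 stood at -0.17 (0.142), IARS1 at -0.15 (0.174) and EPRS1 at -0.13 (0.202). SARS1, LARS1 and NARS1 stood at -0.08, -0.07 and -0.017, and WARS1 at 0.08. The median of the 10 was -0.14, against 0.01 over all genes. In that fit 5 of 10 members, AARS1, GARS1, MARS1, TARS1 and IARS1, were lower at an unadjusted p under 0.05, against 12.5% of all genes. Without that array 7 of 10 members lay wholly lower, all but WARS1, NARS1 and EPRS1, against 12.3% of all genes. No array with the RUNX1 shRNA alone is left in it, so it describes the RUNX1 shRNA in combination.

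A test of whether the RUNX1 and RUNX3 shRNAs acted more than additively gave AARS1 an interaction of -0.41 (SE 0.150, limma adjusted p = 0.422) in a fit with 1 residual degree of freedom. No member passed for any of the 3 pairs of shRNAs, and 0 of 12147 genes did, with 1402 at an unadjusted p under 0.05 for RUNX1 and RUNX3.

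With the RUNX2 and the RUNX3 shRNA no member passed the test, and AARS1 had the lowest estimate of the 10 with each. For the RUNX2 shRNA the median was -0.04, with 9 of 10 below 0, where 5966 of all 12147 genes were. AARS1 at -0.13 (SE 0.111) and GARS1 at -0.12 (SE 0.0861) lay lowest. Leaving out 1 array, these ran from -0.24 (without shRUNX1+shRUNX3) to -0.022 for AARS1 and from -0.19 (without shRUNX2+shRUNX3) to -0.037 for GARS1, each nearest 0 without shRUNX1. MARS1, at -0.08, was the 1 member lower in all 4 pairs, against 6.34% of all genes, and 0 were higher, against 8.81%. For the RUNX3 shRNA the median was 0.01 and the mean -0.0049, with 5 of 10 below 0, where 5819 of all 12147 genes were. AARS1 lay lowest at -0.19 (SE 0.111) and NARS1 highest at 0.06. Leaving out 1 array, AARS1 ran from -0.26 (without shRUNX2+shRUNX3) to -0.082 (without shRUNX1). In all 4 pairs that differ in the RUNX3 shRNA, 0 members were lower, against 7.27% of all genes, and 0 higher, against 9.55%. Called were 0 of 10 members and 0% of all genes for both shRNAs in the limma fits. At an unadjusted p under 0.05, 0 of 10 members were lower or higher with the RUNX2 shRNA, against 1.84% and 3.05% of all genes, and 0 with the RUNX3 shRNA, against 4.82% and 4.57%. Groups overlapped in all 10 members for both. Of all genes tested, 0.733% lay wholly lower and 0.807% wholly higher with the RUNX2 shRNA, and 1.58% and 1.61% with the RUNX3 shRNA.

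**Figure D2:**
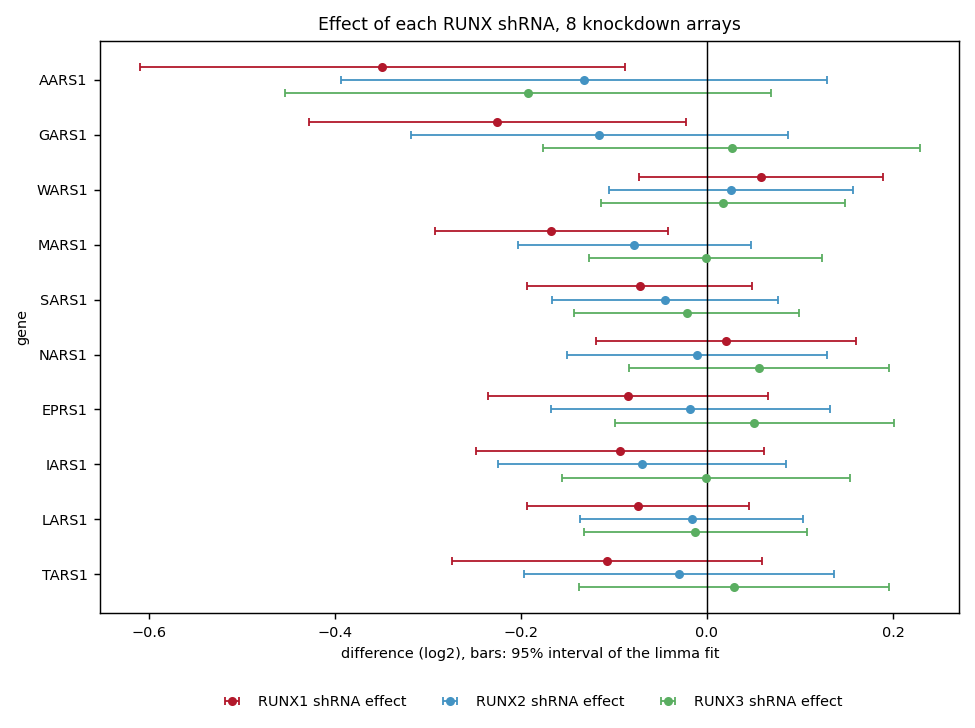
Estimated effect of each RUNX shRNA (log2 difference, with minus without, horizontal axis) on each synthetase (vertical axis) over the 8 knockdown arrays. Points are limma estimates and bars 95% intervals. The RUNX1 intervals of AARS1, GARS1 and MARS1 lie below 0 before adjustment over all genes, and all intervals of the RUNX2 and RUNX3 shRNAs include 0.

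Fitted against how many RUNX genes an array targets, 0 to 3, the members gave a median slope of -0.04. AARS1 had the steepest, -0.22 per gene targeted (SE 0.0648, limma adjusted p = 0.150), followed by GARS1 at -0.10 and MARS1 at -0.08. WARS1 had 0.03 and NARS1 0.02. At an unadjusted p under 0.05, AARS1 and MARS1 were lower, 2 of 10 against 9.11% of all genes, and 0 were higher, against 10%. After adjustment 0 of 10 passed, against 0.00823%.

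Set against shLuc array by array, the members differed by less than 2-fold everywhere. On the triple knockdown 8 of 10 lay below shLuc, against 47.4% of all genes, with AARS1 at -0.59, GARS1 at -0.30 and MARS1 at -0.25, and NARS1 (0.08) and WARS1 (0.06) above it. On shRUNX1+shRUNX3 8 lay below it, against 47%, with AARS1 at -0.69, and on shRUNX1+shRUNX2 8, against 49.1%, with AARS1 at -0.43 and GARS1 at -0.35. On shRUNX1 6 lay below it, against 50.6%, with MARS1 lowest at -0.13 and AARS1 at -0.06. On shRUNX2+shRUNX3 5 lay below it, against 49.2%, on shRUNX2 9, against 51.3%, and on shRUNX3 3, against 51%. Of all genes, 1.43% differed 2-fold on the triple knockdown, 1.98% on shRUNX1+shRUNX3 and 0.362% on shRUNX1+shRUNX2. The share was 0.198% on shRUNX1, 0.115% on shRUNX2+shRUNX3, 0.181% on shRUNX2 and 0.222% on shRUNX3.

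The other cytosolic synthetases had estimates of similar size, and amino acid transporters had a lower median. Lists of related genes were compared by their counts and medians in the RUNX1 shRNA fit, and 0 members of any list passed the test with all 8 knockdown arrays. Fits that left out 1 array each were planned, and the fit without shRUNX1 was singled out after seeing the data. That fit called 3.75% of all genes lower and 2.98% higher. Each list's values in it follow those with all arrays. Of 9 other cytosolic synthetases 6 were below 0, where 5732 of all 12147 genes were, and their median was -0.08. YARS1, the tyrosine enzyme, stood lowest at -0.31 (SE 0.0842, limma adjusted p = 0.117). No other gene of that list reached an unadjusted p under 0.05, and QARS1, the glutamine enzyme, stood highest at 0.11. Their median was -0.10 without the array labelled shRUNX1, 0 of 9 were called, and YARS1 stood at -0.35 (limma adjusted p = 0.0716). Of 15 mitochondrial synthetases 6 were below 0, with a median of 0.03, MARS2 lowest at -0.15 and EARS2 highest at 0.12. Without that array their median was 0.03 as well, and 0 of 15 were called. The family median of -0.09 was thus near that of the other cytosolic enzymes, and no test of a difference between the lists was made.

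Amino acid transporters had a median of -0.32 with the RUNX1 shRNA, and 9 of 11 were lower and 0 higher at an unadjusted p under 0.05, against 10% and 11.2% of all genes. The neutral amino acid transporters SLC38A1 (-0.76) and SLC1A5 (-0.46) lay lowest, and SLC7A11, the cystine transporter, highest at 0.12. The median was -0.37 without the array labelled shRUNX1, and the limma fit called 2 of 11 lower, SLC38A1 (-0.83) and SLC7A1 (-0.37), and 1 higher, SLC7A11 (0.41).

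ATF4 and its targets had a median of -0.15, with 9 of 21 lower and 1 higher at an unadjusted p under 0.05, against the same shares of all genes. The mitochondrial folate enzyme ALDH1L2 (-1.21) and the serine synthesis enzyme PHGDH (-0.98) lay lowest, and the mTORC1 inhibitor DDIT4 highest at 0.57. The transcript of ATF4 itself had an estimate of -0.02, and its target ASNS, asparagine synthetase, -0.57. Without the array labelled shRUNX1 the median was -0.18, and 7 of 21 were called lower and 1, DDIT4 (0.55), higher. ALDH1L2 then stood at -1.51 (limma adjusted p = 0.0344), PHGDH at -1.26 (0.0344), ASNS at -0.64 (0.0361) and ATF4 at -0.04 (0.675).

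Unfolded protein response genes had mostly negative estimates with the RUNX1 shRNA, and the few genes that set eIF2 alpha phosphorylation lay on both sides of 0. ATF4 activity is set mainly by translation, which an array of transcripts does not measure. The stress genes CHAC1 and TRIB3 had estimates of -0.23 and -0.07, and DDIT3, a transcription factor of prolonged stress, 0.21. On every knockdown array DDIT3 stood under the level filter of 3.80, at 2.72 to 3.44. It passed the filter only on the 6 hour arrays, so its estimate rests on levels under the filter. Among the kinases and phosphatase subunits of eIF2 alpha the median was 0.04, with the endoplasmic reticulum kinase EIF2AK3 at -0.29 and the phosphatase subunit PPP1R15B at 0.28. At an unadjusted p under 0.05, 1 of these 6 genes was lower and 1 higher, against 10% and 11.2% of all genes. Unfolded protein response genes had a median of -0.14 (11 of 14 below 0), with MANF at -0.42 and EDEM1 at 0.46. Of these 14 genes 7 were lower and 1 higher at an unadjusted p under 0.05, against 10% and 11.2% of all genes. Their median was -0.20 without the array labelled shRUNX1, with 5 of 14 called lower, among them MANF (-0.56) and the chaperone gene HSPA5 (-0.30), and 1 higher, EDEM1 (0.43). The eIF2 alpha list then had a median of 0.05, and 0 of 6 were called.

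Translation factors had a median of -0.03 and tRNA maturation and export genes -0.05, each closer to the median of all genes. Genes induced by interferon gamma had a median of 0.18, with 7 of 9 above 0, where 6415 of all 12147 genes were. At an unadjusted p under 0.05, 3 of the 9 were higher, against 11.2% of all genes, and 0 lower, against 10%. Among the 9 were the immunoproteasome subunit PSMB9 (0.47) and the MHC class II activator CIITA (0.46), while WARS1 stood at 0.06. Without the array labelled shRUNX1 the medians were -0.04 for translation factors and -0.07 for tRNA genes, with 0 called in either, and 0.24 for the interferon gamma genes. Of those 9 genes 2, PSMB9 (0.55) and CIITA (0.55), were then called higher.

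**Figure D3:**
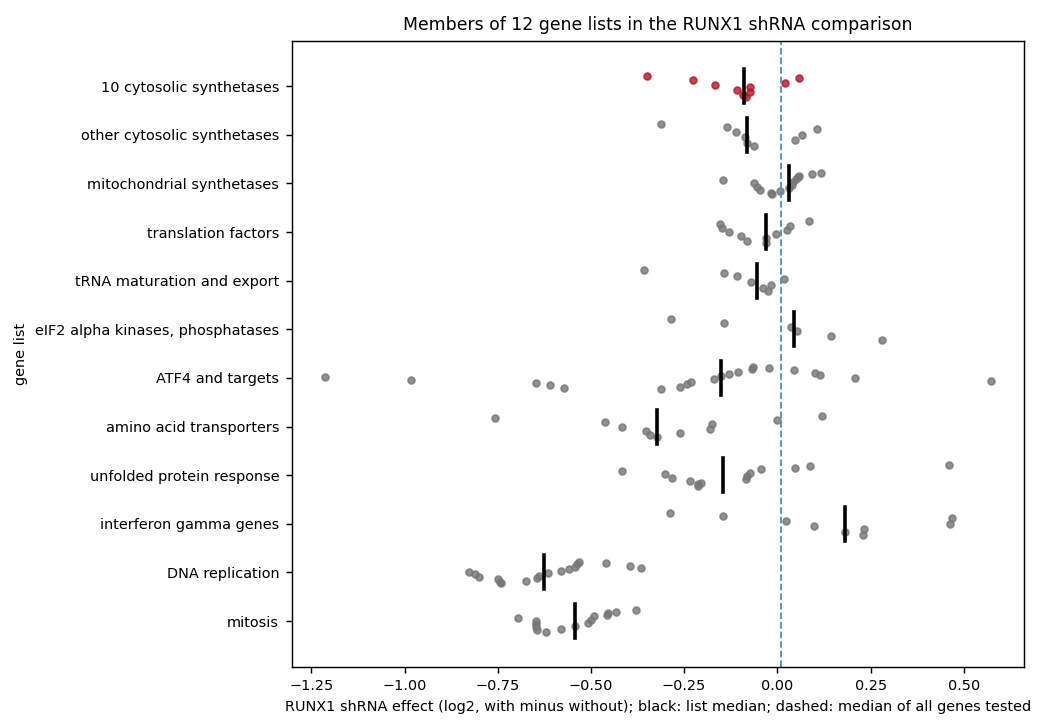
RUNX1 shRNA effect (log2, horizontal axis) of each tested gene in 12 lists (vertical axis, 1 point per gene), with the list median as a black bar and the median of all genes tested as a dashed line. The 10 synthetases (top) have a median of -0.09, amino acid transporters -0.32 and DNA replication genes -0.63.

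Genes of DNA replication lay lower on the same arrays as AARS1. Their list of 18 genes had a median of -0.63 for the RUNX1 shRNA. All 18 were lower at an unadjusted p under 0.05, against 10% of all genes, while 0 passed after adjustment. The 15 mitosis genes had a median of -0.54. Without the array labelled shRUNX1 the medians were -0.75 and -0.69, and the limma fit called 17 of 18 replication and 14 of 15 mitosis genes lower. Relative to shLuc, the mean of the replication genes was -0.91 on the triple knockdown, -1.09 on shRUNX1+shRUNX3, -0.43 on shRUNX1+shRUNX2 and -0.16 on shRUNX1. AARS1 stood at -0.59, -0.69, -0.43 and -0.06 on those arrays, and the mean of the 10 synthetases at -0.14, -0.16, -0.16 and -0.01. On shRUNX2+shRUNX3, shRUNX2 and shRUNX3, AARS1 stood at -0.12, -0.19 and -0.05, and the replication genes at -0.04, -0.06 and 0.0023. The part of the cell cycle in the synthetase levels was not tested.

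**Figure D4:**
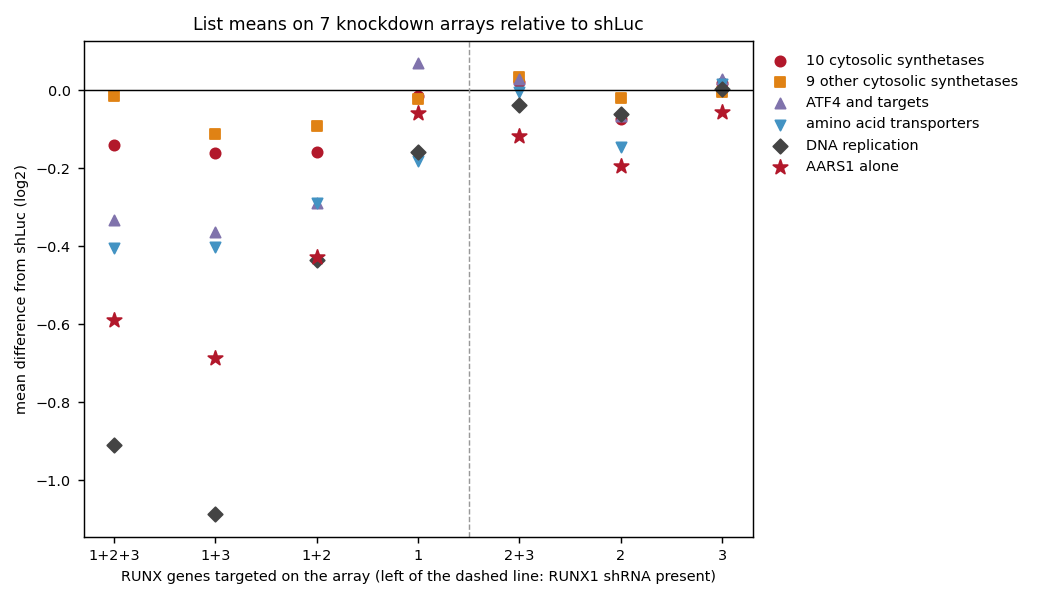
Mean difference from shLuc (log2, vertical axis) of AARS1, the 10 synthetases and related gene lists on the 7 other knockdown arrays (horizontal axis, numbers name the RUNX genes targeted). On the 3 combinations with the RUNX1 shRNA AARS1 lies between -0.69 and -0.43, below the mean of the 10 synthetases at -0.16 to -0.14.

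None of the 10 synthetases was called at 6 hours with either alkylating compound. Chb-M' and Chb-50 were read at the same dose and time, so 1 pair of compounds was compared. There are no replicates of these arrays. The limma test used here takes its spread from the knockdown arrays, assumes that the compound arrays vary alike, and has 7.19 degrees of freedom.

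Against DMSO, 9 of 10 members lay higher with Chb-M' by a median of 0.05, where 44.4% of all genes lay lower and the median of all genes was 0.02. SARS1 lay highest, at 6.74 with Chb-M' and 6.67 with Chb-50, against 6.58 with DMSO. Its difference was 0.17 with Chb-M' (SE 0.103, 95% interval -0.08 to 0.41, limma adjusted p = 0.539) and 0.09 with Chb-50. IARS1 read 9.50 with Chb-M' and 9.36 with Chb-50, against 9.36 with DMSO, and NARS1 9.91, 9.83 and 9.80 in the same order. The interval of IARS1 for Chb-M' ran from -0.17 to 0.45.

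AARS1, GARS1, MARS1, EPRS1 and TARS1 lay within 0.04 of DMSO with Chb-M'. AARS1 read 9.35 with Chb-M' and 9.38 with Chb-50, against 9.32 with DMSO, and its interval for Chb-M', from -0.49 to 0.56, was the widest of the family. With Chb-50 5 of 10 members lay lower, against 49% of all genes. TARS1 was lowest, at 9.03 against 9.20 with DMSO (difference -0.17, SE 0.142, 95% interval -0.50 to 0.17, limma adjusted p = 0.827). WARS1 read 6.22 with Chb-M' and 6.15 with Chb-50, against 6.13 with DMSO.

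Between the compounds, Chb-M' minus Chb-50 had a median of 0.08, from -0.03 in AARS1 to 0.17 in TARS1 (95% interval -0.17 to 0.50, limma adjusted p = 0.923). Upper interval bounds reached 0.51 in GARS1, so the values do not show that the compounds act alike. Called were 0 of 10 members in each comparison, against 0.609% of all genes for Chb-M', 0% for Chb-50 and 0% between the compounds. At an unadjusted p under 0.05 the same limma fit had 0 of 10 members lower or higher with Chb-M', against 7.59% and 6.31% of all genes. It had 0 with Chb-50, against 5.24% and 3.94%, and 0 between the compounds, against 3.33% and 3.82%. No member differed 2-fold from DMSO, against 0.873% of all genes with Chb-M' and 0.296% with Chb-50.

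The mitochondrial phenylalanine enzyme FARS2 had the lowest difference from DMSO among the mitochondrial synthetases with Chb-M', a difference between single arrays. It read 5.50 with Chb-M' and 5.81 with Chb-50, against 6.31 with DMSO and 6.38 with shLuc. The difference for Chb-M' was -0.81 (SE 0.122, limma adjusted p = 0.0486), and it was the 1 gene called of 15 mitochondrial synthetases. The call was lost in 10 of 15 alternatives, in each that left out a knockdown array among them (adjusted p up to 0.124). NARS2, the mitochondrial asparagine enzyme, lay next at -0.43 (0.124). For Chb-50 FARS2 stood at -0.49 (0.283), and Chb-M' minus Chb-50 at -0.32 (limma adjusted p = 0.653).

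Among ATF4 targets, SESN2 lay highest with both compounds, at 1.40 with Chb-M' (limma adjusted p = 0.087) and 0.76 with Chb-50. SESN2, a regulator of mTORC1, is also known as a p53 target. The p53 list had a median of 0.92 with Chb-M' and 0.55 with Chb-50, and the cause of the SESN2 difference was not tested. The ATF4 list had medians of 0.07 and 0.06, with ASNS at 0.07 and 0.26, CHAC1 at 0.56 and 0.29 and DDIT3 at -0.24 and -0.18, in that order of compounds.

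**Figure D5:**
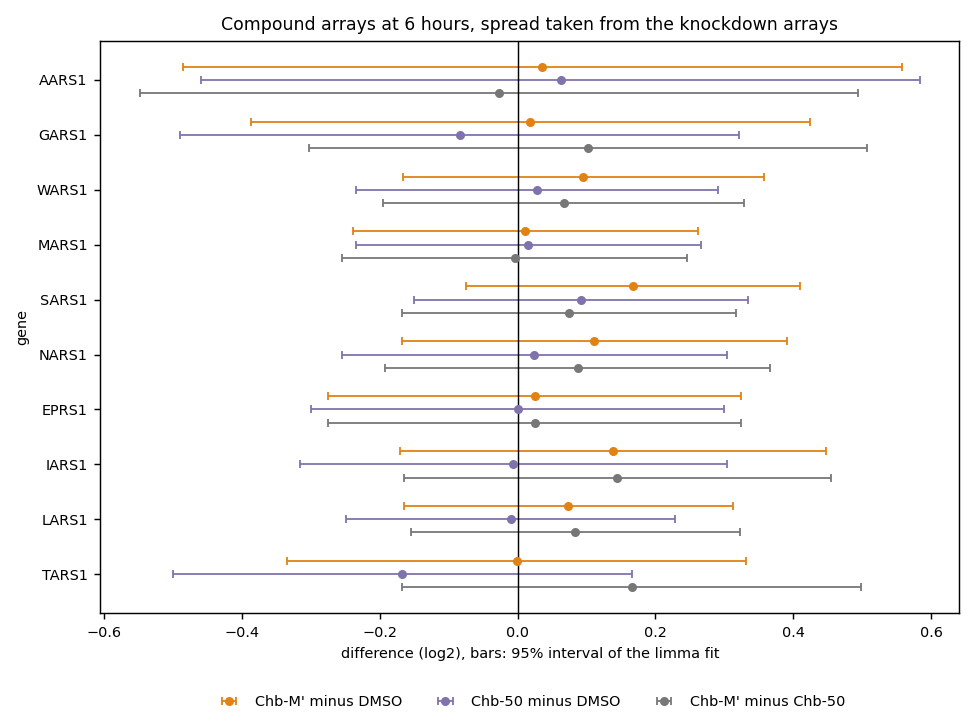
Differences between the 6 hour arrays (log2, horizontal axis) for each synthetase (vertical axis). Points are differences of single arrays and bars 95% intervals of a limma fit whose spread comes from the knockdown arrays. Every interval includes 0, and AARS1 has the widest.

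Between the knockdown cultures and the 6 hour cultures most members did not overlap. In 6 of 10 members, GARS1, MARS1, EPRS1, IARS1, LARS1 and TARS1, all 8 knockdown arrays read higher than all 3 arrays at 6 hours, against 8.31% of all genes. WARS1 was the 1 member with all 8 knockdown arrays lower, against 7.83%. This comparison was added after the values were seen and has no test.

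EPRS1 ran from 9.58 to 9.84 on the knockdown arrays (median 9.71), against 9.39 to 9.42 at 6 hours. TARS1 ran from 9.33 to 9.58 (median 9.45), against 9.03 to 9.20, and GARS1 from 8.71 to 9.14 (median 8.95), against 8.50 to 8.60. WARS1 ran the other way, from 5.87 to 6.02 (median 5.94), against 6.13 to 6.22. AARS1 overlapped, because its 3 low knockdown arrays lay below all 6 hour arrays. Between the controls, shLuc minus DMSO was 0.48 in GARS1, 0.41 in IARS1, 0.41 in AARS1 and -0.17 in WARS1, with a family median of 0.29 against 0.0060 over all genes. Of the members 1, WARS1, lay lower, against 47.1% of all genes, and none differed 2-fold, against 0.971%. Transduction, doxycycline, shRNA and the time in culture differ together between these arrays and cannot be told apart.

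Most pairs of members had a Pearson's r above 0 over the 11 arrays, and WARS1 and SARS1 had each other as closest member (0.42). Over the 8 knockdown arrays SARS1 was instead closest to MARS1 (0.90), and WARS1 had no member with a positive r, NARS1 being the nearest at -0.22. Over the 11 arrays, Pearson's r between members was above 0 in 31 of 45 pairs, with a median of 0.56, and over the 8 knockdown arrays in 34 of 45, with a median of 0.63. The closest pair over 11 arrays was IARS1 and TARS1 (0.96), and GARS1 was closest to MARS1 (0.95). WARS1 was the least similar partner of 8 of the other members, with r down to -0.91 with TARS1. The arrays share controls and culture conditions, so these values describe the arrays. Pairs of other genes were not read for comparison, so the values do not show a trait particular to the family.

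Of all other genes tested, the 10 whose levels over the 11 arrays most resembled the mean of the centred members had Pearson's r from 0.94 to 0.97. They were SNORD12B (a small nucleolar RNA), RIOK1, SUPT16H, SLC28A3, SLC7A1 (the cationic amino acid transporter), CHID1, RELL1, BRIX1, RFWD3 and PSAT1 (a serine synthesis enzyme). Over the 8 knockdown arrays the 10 closest were NIP7, HSPA5 (the endoplasmic reticulum chaperone BiP), POP7, TAOK2, NDC1, NOL11, SUPT16H, BCAT1 (the cytosolic branched chain aminotransferase), SNORD12B and CBS, with r from 0.97 to 1.00. SUPT16H and SNORD12B were in both sets. The best of so many genes over so few arrays reach high values, and no test is attached.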

How the data were processed

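RNA was isolated with an RNeasy kit and turned into biotinylated cDNA for Affymetrix arrays (WT PLUS reagents), per the labels' protocols. The deposited table holds 1 log2 level per transcript cluster and array. RMA, Expression Console 1.3.1 (Affymetrix) and version 1.0 of the Transcriptome Analysis Console are named per the submitters' processing notes, without role or order, and a genome build is not given in the sources used. That levels are log2 follows from their range (0.48 to 12.74). Probe intensities and detection calls were not analysed here, so how far a level stands above background is not known, and precision is limited by having 11 arrays. Levels of different genes come from different probes and are not compared.

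Of 53617 clusters 23558 had 1 gene symbol. For 618 genes with several clusters, the cluster of highest mean stood for the gene. A gene was tested if it reached 3.80, the median of all these values, on any array. limma 3.58.1 in R 4.3.3 fitted the 8 knockdown arrays (4 residual and 3.19 prior degrees of freedom), or all 11 arrays with 1 level each for Chb-M', Chb-50 and DMSO. The fits were also run on simulated data with independent noise and additive effects. Such data cannot show whether the arrays meet these assumptions, or whether the compound arrays vary like the knockdown arrays. Alternatives changed the level filter, the choice of cluster, the scaling, the prior, the terms of the fit and the arrays included. The members, lists and the naming rule were chosen with earlier results of these data known. The rule takes all 10 members, the 2 highest and 2 lowest genes of each list, 6 fixed genes of the ATF4 list, and the 10 genes of most similar profile. Members missing from the RefSeq promoter table (LARS1) are named only.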

Additional observations from a re-analysis of the deposited data

Results flagged for a closer look

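AARS1 on the array labelled shRUNX1+shRUNX3 read 9.04, far below the other 3 arrays without the RUNX2 shRNA, shRUNX1, shRUNX3 and shLuc, which lay between 9.67 and 9.73. The gap to the nearest of them was 0.915 of the range of the 4 arrays, above Dixon's 95% critical value for 4 values. These 4 arrays are 4 conditions and not repeats of 1. No other gap passed it among 60 sets of 4 arrays examined (10 members, with and without each of the 3 shRNAs), and chance alone gives about 5% of such sets.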

How the results depend on the processing

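No paired analysis was possible because every condition has 1 array, so replicate numbers pair nothing (the 4 pairs of arrays in the text share shRNAs, not a replicate). Of 1040 alternative values for the 70 member results, 1014 kept direction and side of the threshold, 25 changed sign and 1 passed the test, AARS1 for the RUNX1 shRNA without the array labelled shRUNX1 (-0.46, adjusted p = 0.0378). Over all alternatives AARS1 ran from -0.46 to -0.24 (adjusted p 0.0378 to 0.384), GARS1 from -0.30 to -0.15 and MARS1 from -0.19 to -0.15. The sign changes concern 12 results of at most 0.03 in size. Median centring gave 0.0021 for MARS1 and 0.0026 for IARS1 with the RUNX3 shRNA, -0.00075 for MARS1 with Chb-M', and 0.0092 for EPRS1 and 0.0031 for IARS1 with Chb-50. Quantile normalization gave 0.015 for IARS1 with the RUNX3 shRNA, 0.00016 for the EPRS1 slope, and 0.0062 for EPRS1 and 0.011 for IARS1 with Chb-50. Leaving out 1 array each, ranges that crossed 0 were -0.017 to 0.052 for NARS1 with the RUNX1 shRNA. With the RUNX2 shRNA they were -0.042 to 0.027 for NARS1, -0.051 to 0.031 for EPRS1 and -0.085 to 0.030 for TARS1. With the RUNX3 shRNA they were -0.044 to 0.11 for GARS1, -0.0078 to 0.043 for WARS1, -0.020 to 0.017 for MARS1 and -0.026 to 0.052 for IARS1.

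Counts of called genes over the whole table moved more. For the RUNX1 shRNA (0 in the main setting, 2580 at an unadjusted p under 0.05) the stricter level filter gave 110, the trended robust prior 65 and interaction terms 391, and leaving out 1 array 0 to 817, the highest without shRUNX1. For the RUNX3 shRNA (0, with 1141 unadjusted) leaving out 1 array gave 0 to 1. The RUNX2 shRNA gave 0 throughout, with 593 unadjusted. The slope called 1 gene, and 0 without the level filter or with quantile normalization, and 0 to 234 without 1 array, the highest without shRUNX2+shRUNX3. For Chb-M' (74) the count was 7 without the level filter, 128 with the stricter one, 49 with the mean over clusters and 144 with the spread of the number-of-targets fit, and 0 to 77 without 1 knockdown array. Chb-50 gave 0 (1114 unadjusted) but 5 with that spread, and the contrast between compounds 0 throughout (869 unadjusted). Members wholly lower with the RUNX1 shRNA numbered 2, and 2 to 7 without 1 array, in alternatives chosen after seeing the data. FARS2 with Chb-M' lost its call in 10 of 15 alternatives. The causes were not tested.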

Other observations

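Between the control cultures, shLuc minus DMSO, related gene lists differed in size and sign from the synthetases. The mean difference was 0.24 over the 10 synthetases and 0.14 over 9 other cytosolic synthetases, but -0.0045 over 15 mitochondrial synthetases. It was 0.12 over translation factors, 0.09 over ATF4 and its targets and 0.09 over amino acid transporters. Unfolded protein response genes stood at -0.54, interferon gamma genes at -0.29, and DNA replication genes at 0.34. These are differences of 2 single arrays that differ in transduction, doxycycline and time, with no replicate check.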
